A study of Homo sapiens with 20 samples.

Results

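The 3 D-type cyclins (CCND1, CCND2, CCND3), the 3 CIP/KIP inhibitors (CDKN1A, CDKN1B, CDKN1C) and the 4 INK4 inhibitors (CDKN2A, CDKN2B, CDKN2C, CDKN2D) were followed while human neural progenitors differentiated. These 10 genes were chosen by symbol, as the members of the 3 families, from 20237 coding records among 38369 records in all, where a record is 1 gene locus of the authors' catalogue. Each symbol was carried by 1 coding record, no record was merged with another gene, and all 10 records had a mean over the days of at least 1 FPKM (RNA fragments per kilobase of transcript, corrected for library depth). Since FPKM takes out transcript length, levels can be set side by side between genes.

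Polyadenylated RNA was sequenced from 20 cultures of neural progenitor cells made from the established embryonic stem cell line H1, and no culture carried a genetic change or a drug. Day 0 cultures (3) were in proliferation medium with 20 ng/ml FGF, a mitogen of neural progenitors, on Matrigel. At that point FGF was withdrawn and 10 ng/ml BDNF, a neurotrophin, was added, and cultures were collected at day 1 (3), day 2 (3), day 4 (3), day 5 (2, the submitters having removed an outlier), day 11 (3) and day 18 (3). The basal medium and its supplements were changed in the same switch. Between days 0 and 1 the loss of FGF, the added BDNF and the new medium therefore cannot be told apart. Cells for days 5, 11 and 18 had been replated at day 4 on poly-D-lysine and laminin, so between days 4 and 5 time and the new surface cannot be told apart. For each record and day the files give a single FPKM, which the authors computed from the pooled cultures. The spread between cultures is therefore not known here, the authors' own comparisons of adjacent days were not used and no test was run for any difference below. The depth behind each value is unknown, and every change is described as a size and set against all coding records.

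D-type cyclins bind CDK4 and CDK6, and the active kinases phosphorylate the retinoblastoma protein RB1, which then releases E2F transcription factors and lets a cell pass from G1 into S phase. Their genes respond to mitogens such as FGF. INK4 proteins bind CDK4 and CDK6 and keep cyclin D off, whereas CIP/KIP proteins bind cyclin and kinase together and mainly inhibit CDK2 complexes. Both inhibitor families are known for holding cells in G1, and in developing nervous tissue CDKN1B, CDKN1C and CDKN2D are known from progenitors leaving the cell cycle and from neurons.

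The labelled cells were checked by marker levels. The progenitor markers NES, SOX2, MSI1 and VIM were all present at day 0, with NES at 513 FPKM, and their list, which also holds PAX6, summed to 3640 FPKM at day 0 and 1785 at day 18, with VIM alone at 2948 and 1493. Of the 5, NES was past 2-fold lower (-1.51 on the log2 scale described below) and PAX6 past 2-fold higher (1.25, from 4.31 to 10.4 FPKM). Of 7 neuron markers with a record, 5 were past 2-fold higher at day 18, against 7.57% of coding records with a mean of at least 1 FPKM, and the sum of the 7 went from 724 to 1753 FPKM. TUBB3, in a record merged with MC1R and TUBB2C, made up 382 FPKM of that sum at day 0 and 502 at day 18. Of 4 expressed markers of mesenchymal and neural crest cells, 3 were past 2-fold lower, against 29.9% of those coding records, and the sum of the list went from 641 to 54.8 FPKM, with COL1A1 listed at 0 on every day. The pluripotency genes POU5F1 and NANOG stayed at or below 0.108 FPKM and the astrocyte gene GFAP at or below 0.186. From the same lists DPPA4 was at 9.72 FPKM at day 0 and 2.25 at day 18, and S100B at 8.68 and 4.25, both past 2-fold lower. Markers of several cell types thus moved over the same days as the changes below, their part in them was not tested, and in bulk RNA fewer cells of a type and less RNA per cell cannot be told apart.

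Promoter sequence is shown for 3 members that took different courses, one lower, one level and one higher at day 18, and whose deposited gene model starts within 6 bases of a RefSeq start. Each line gives the 250 bases before that RefSeq start, 5′ to 3′ on the strand of the gene, taken from the RefSeq table for GRCh38.p14 and matched once each in GRCh37 (hg19), the build of the files. The windows lie at chr6:41909547-41909796 (minus strand) for CCND3, chr12:12870052-12870301 (plus strand) for CDKN1B and chr19:10679656-10679905 (minus strand) for CDKN2D. Capitals mark GGGCGG, the GC box bound by SP1 and related factors, read on either strand.
CCND3: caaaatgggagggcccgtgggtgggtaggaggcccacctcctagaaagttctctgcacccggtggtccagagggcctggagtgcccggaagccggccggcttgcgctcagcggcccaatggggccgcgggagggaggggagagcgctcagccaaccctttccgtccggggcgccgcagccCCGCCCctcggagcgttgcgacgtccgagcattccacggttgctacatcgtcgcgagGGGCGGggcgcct
CDKN1B: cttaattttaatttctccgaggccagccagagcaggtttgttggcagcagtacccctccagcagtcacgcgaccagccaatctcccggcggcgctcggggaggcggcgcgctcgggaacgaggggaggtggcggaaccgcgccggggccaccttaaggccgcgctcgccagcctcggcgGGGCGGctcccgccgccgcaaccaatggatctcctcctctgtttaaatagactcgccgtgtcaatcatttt
CDKN2D: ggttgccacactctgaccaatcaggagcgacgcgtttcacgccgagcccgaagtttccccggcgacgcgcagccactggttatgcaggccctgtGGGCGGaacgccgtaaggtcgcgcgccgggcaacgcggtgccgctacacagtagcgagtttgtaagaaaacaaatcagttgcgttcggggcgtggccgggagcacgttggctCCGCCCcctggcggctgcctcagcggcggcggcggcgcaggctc
The GC box letters stood in all 3, as 2 copies for CCND3, 1 for CDKN1B and 2 for CDKN2D. CCND3 had 3 RefSeq windows, and the one nearest a deposited start is shown. The others held 5 and 0 copies. RefSeq gave 12 such windows for 7 of the 10 members (CCND3, CDKN1A, CDKN1B, CDKN2A, CDKN2B, CDKN2C and CDKN2D), and 9 of the 12 held GGGCGG, against 42.6% of 35116 windows over all genes. The 3 windows shown were also rich in G and C, at 71.2% for CCND3, 64.4% for CDKN1B and 67.6% for CDKN2D, against a median of 58.0% over all windows. The 12 ran from 45.6 to 77.2%. Both ends were windows of CDKN2C, and its remaining window, at 48.8%, also lay below that median. The E box CACGTG was read in 2 of 12 windows, both of CDKN2C, and in 6.34% of all windows. These 2 windows lay 7191 and 275 bases from the nearest start of the deposited record, and others of the 12 up to 2201 bases away. None of the 12 held the E2F-type letters TTTCCCGC, TTTGGCGC or TTTCGCGC, the cyclic AMP element TGACGTCA, the forkhead letters TGTTTAC or the TATA letters TATAAA, found in 1.39, 0.550, 0.439, 1.65, 2.98 and 10.7% of all windows. Matches were searched on both strands and are a description of letters in these windows.

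From day 0 to day 18 all 3 D cyclins ended lower, the CIP/KIP inhibitors took 3 different courses, and 1 INK4 inhibitor, CDKN2D, came to hold most of the INK4 transcript. Changes are differences of log2(FPKM + 0.1), later minus earlier, and a change of at least 1 in size is called past 2-fold. By this measure 4 of 10 members were past 2-fold lower (CCND1, CCND2, CCND3 and CDKN2A), against 29.9% of the 11793 coding records with a mean of at least 1 FPKM. CDKN1C and CDKN2D were past 2-fold higher, against 7.57% of coding records. Past 2-fold in either direction were 6 of 10 members and 37.5% of coding records. The coding records had shifted as a whole, with a median change of -0.60 and 76.1% of them lower at day 18, so that the members' median of -0.75 lay near that of all coding records. Read against that shift, CCND3, CDKN1C and CDKN2D were still past 2-fold, and CCND1, CCND2 and CDKN2A were not, at -0.49, -0.57 and -0.66. After that recentring 14.7% of coding records were past 2-fold higher and 12.1% lower, and of the members 2 were higher and 1 lower.

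**Figure D1:**
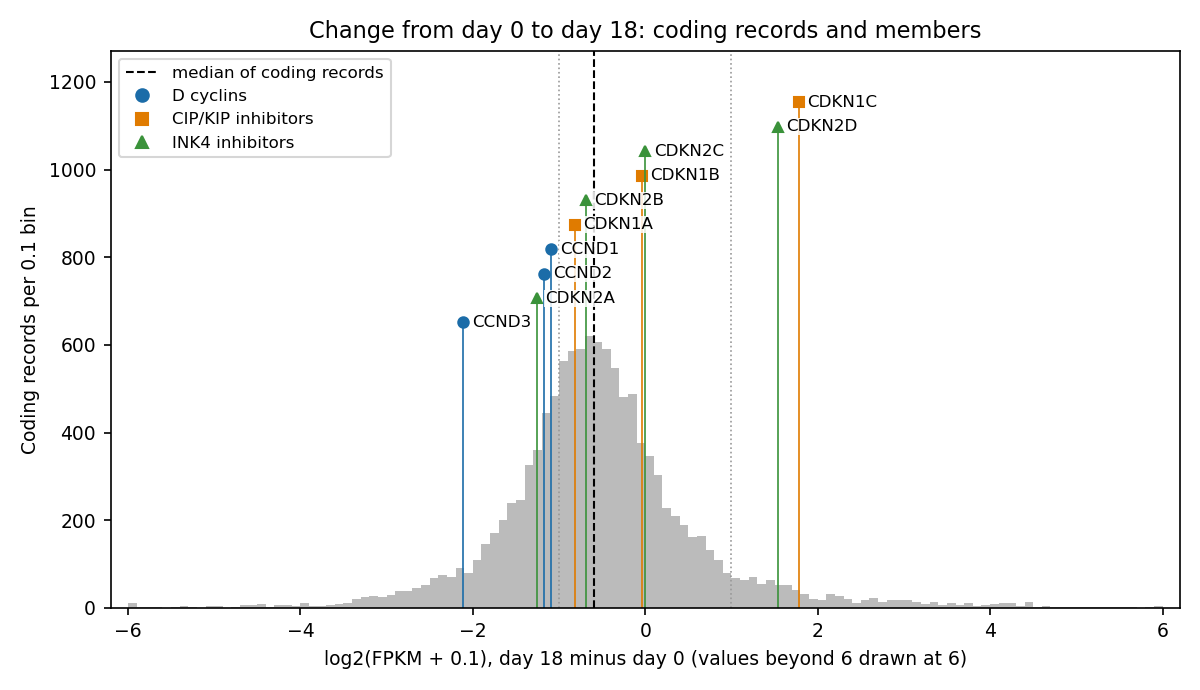
Grey bars count the 11793 coding records with a mean of at least 1 FPKM by their change in log2(FPKM + 0.1) from day 0 to day 18 (horizontal axis, day 18 minus day 0). Stems mark the 10 members with marker shape and colour for the family, the dashed line is the median of the coding records (-0.60) and dotted lines stand at 2-fold. CCND3 (-2.11) lies in the left flank and CDKN1C (1.78) and CDKN2D (1.54) in the right flank, while the other members lie within the bulk.

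CCND1 (chromosome 11, 69455873 to 69469241, plus strand, hg19), the cyclin most closely tied to mitogen signalling, had the highest level of the D cyclins on every day. Its FPKM was 75.3 (day 0), 61.0 (day 1), 58.6 (day 2), 59.2 (day 4), 46.9 (day 5), 48.4 (day 11) and 35.5 (day 18). The level stepped down between days 0 and 1, between days 4 and 5 and after day 11, and was nearly flat between these steps. The change over the whole course was -1.09 (26.4th percentile of coding records). Even at its lowest, CCND1 stood above 94.4% of all coding records of that day.

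CCND2 (chromosome 12, 4382902 to 4414521, plus strand), the D cyclin best known from cortical progenitors, was at 35.9, 32.2, 29.9, 26.8, 26.7, 19.8 and 16.0 FPKM on the 7 days in turn. Each of these values was lower than the one before, and none of the steps passed 2-fold. The whole change was -1.17 (23.3rd percentile). An antisense lincRNA record, linc-CCND2-AS, shares 99.6% of the CCND2 exon bases on the other strand at a mean of 0.277 FPKM, and reads of this pair cannot be told apart without strand.

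CCND3 (chromosome 6, 41902672 to 42016610, minus strand, 7 transcripts in the record), the D cyclin known mostly from blood cells and muscle, was lowest of the 3 throughout and had the largest change. Its values were 28.2 FPKM (day 0), 14.3 (day 1), 12.8 (day 2), 10.9 (day 4), 9.22 (day 5), 7.97 (day 11) and 6.45 (day 18). The largest of the 6 steps was the first day after the switch of medium, with a change of -0.98, just inside 2-fold, at the 3.25th percentile of coding records for that step. CCND1 and CCND2 changed by -0.31 and -0.16 in the same day. Over the whole course the CCND3 change was -2.11 (6.00th percentile), and -1.52 after recentring on the coding median.

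The summed D cyclin FPKM was 140, 107, 101, 96.9, 82.8, 76.2 and 57.8 on the 7 days, a day 18 level of 0.415 times that of day 0. At day 0 CCND1 made up 54.0% of the sum, CCND2 25.8% and CCND3 20.2%. At day 1 the CCND3 share was 13.3%, and from day 4 on it lay between 10.5 and 11.2%, while CCND1 held 61.3% and CCND2 27.6% at day 18. The CCND3 share thus differed mainly between day 0 and day 1, while the sum was lower on each later day.

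**Figure D2:**
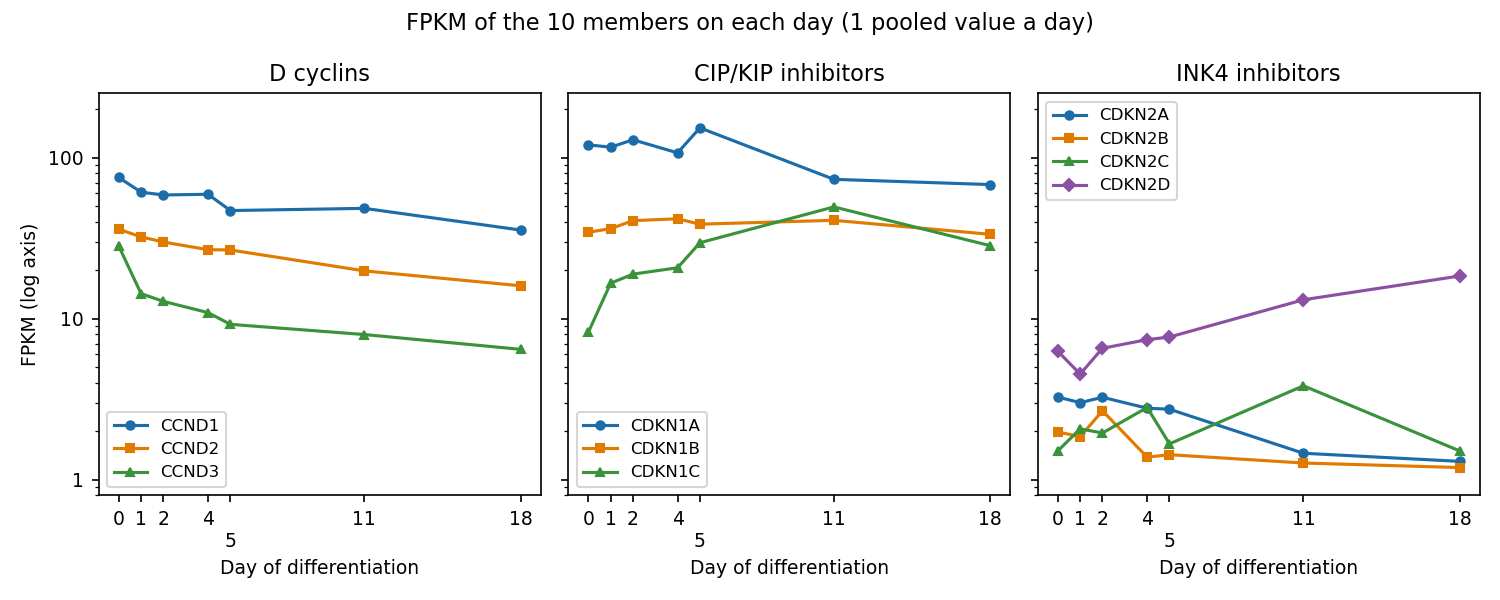
FPKM (log axis) of the 10 members against day of differentiation, 1 panel per family, each point the authors' pooled value of a day. The D cyclins all slope down, CDKN1A peaks at day 5 (153 FPKM) and CDKN1C at day 11 (49.4 FPKM), CDKN1B lies between 33.4 and 41.7 FPKM, and CDKN2D climbs away from the other INK4 genes to 18.4 FPKM.

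The CIP/KIP inhibitors were the most abundant of the inhibitors. CDKN1A (p21; chromosome 6, 36645588 to 36655108, plus strand), an inhibitor known from the response to DNA damage, had the highest level of all 10 members on every day. It measured 120 FPKM (day 0), 116 (day 1), 129 (day 2), 107 (day 4), 153 (day 5), 73.3 (day 11) and 68.0 (day 18). The highest value followed replating, with a change from day 4 to day 5 of 0.52 (97.5th percentile for that step). The next step, to day 11, was -1.06 and past 2-fold, or -0.90 relative to the coding median of that step. Over the whole course the change was -0.82, which is -0.22 relative to the coding median, so at day 18 CDKN1A still stood above 97.8% of all coding records. An antisense lincRNA record, linc-CDKN1A-AS, covers 94.9% of its exon bases at a mean of 0.485 FPKM.

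CDKN1B (p27; chromosome 12, 12870302 to 12875305, plus strand), which is regulated largely through degradation of its protein, had the steadiest transcript of the members. Its level was 34.4, 36.2, 40.6, 41.7, 38.6, 40.8 and 33.4 FPKM on the 7 days. The highest value was 1.25 times the lowest, and the change over the course was -0.04. Because most coding records were lower at day 18, this put CDKN1B at the 74.7th percentile, 0.56 above their median.

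CDKN1C (p57; chromosome 11, 2904450 to 2906995, minus strand), an imprinted gene expressed from the maternal copy, had the largest increase of the members. It was at 8.22 FPKM (day 0), 16.6 (day 1), 18.9 (day 2), 20.7 (day 4), 29.6 (day 5), 49.4 (day 11) and 28.4 (day 18). Day 0 was the lowest and day 11 the highest, 6.01 times day 0, with day 18 at 3.45 times day 0. The first day gave a change of 1.01 (96.4th percentile), and CDKN1C was the single member past 2-fold in that step. From day 11 to day 18 it was lower by a change of -0.80 (6.89th percentile), short of 2-fold.

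The CIP/KIP sum was 162 FPKM (day 0), 221 (day 5, its peak) and 130 (day 18), or 0.799 times day 0. CDKN1A held 73.8% of it at day 0 and 52.4% at day 18, while CDKN1C held 5.06% (day 0), 30.2% (day 11) and 21.9% (day 18). The ratio of CDKN1A to CDKN1C was 14.6 at day 0 and 1.48 at day 11. CDKN1C stood at 0.109 of the CCND1 level at day 0 and at 1.02 of it at day 11.

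INK4 transcripts were scarce beside the other families, summing to 13.0 FPKM at day 0 and 22.4 at day 18. CDKN2A (chromosome 9, 21967752 to 21994490, minus strand) encodes p16INK4a and, from another first exon, ARF, a tumour suppressor protein. The record joins 3 transcripts with the p16INK4a first exon and 1 with the ARF first exon, so the products cannot be told apart. Its level was 3.26, 3.01, 3.25, 2.78, 2.74, 1.46 and 1.30 FPKM on the 7 days. Values were level up to day 5 and lower at days 11 and 18, with a step of -0.86 from day 5 to day 11 and -1.26 over the course. CDKN2B (p15; chromosome 9, 22002906 to 22009312, minus strand), its neighbour and a known TGF-beta target, was at 1.98, 1.85, 2.68, 1.38, 1.43, 1.27 and 1.19 FPKM. Day 2 was its highest value, the step to day 4 was -0.90 (0.958th percentile), and the whole change of -0.69 lay close to the coding median. Exons of CDKN2A and CDKN2B share an identical run of at most 80 bases, shorter than the reads described in the study's methods. Whether reads were split between these genes was not tested, so both levels are given with that reserve.

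CDKN2C (p18; chromosome 1, 51433608 to 51440307, plus strand), known from dividing progenitors, measured 1.51 FPKM (day 0), 2.07 (day 1), 1.95 (day 2), 2.81 (day 4), 1.67 (day 5), 3.83 (day 11) and 1.51 (day 18). It ended where it began and moved in between, with 1.15 for the step to day 11 and -1.29 for the step to day 18, both past 2-fold. At these low levels and unknown depth, how much of that movement is counting error was not tested.

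CDKN2D (p19; chromosome 19, 10677139 to 10679655, minus strand), the INK4 gene known from postmitotic neurons, was at 6.27, 4.53, 6.55, 7.41, 7.69, 13.1 and 18.4 FPKM on the 7 days. Day 1 was the lowest value, and each later day was higher than the one before. The step to day 11 was 0.76 (96.7th percentile) and the last step, to day 18, was 0.49 (96.3rd percentile), in a week when 9 of the 10 members and 81.4% of coding records were lower. In that last step 6 of 10 members were lower after recentring and 3 of 10 with each day scaled to the same sum of FPKM, CDKN2D being higher under both. The change over the course was 1.54 (95.3rd percentile), or 2.14 after recentring. Its share of the INK4 sum was 48.2% at day 0 and 82.2% at day 18, and its ratio to CDKN2A 1.93 and 14.1.

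**Figure D3:**
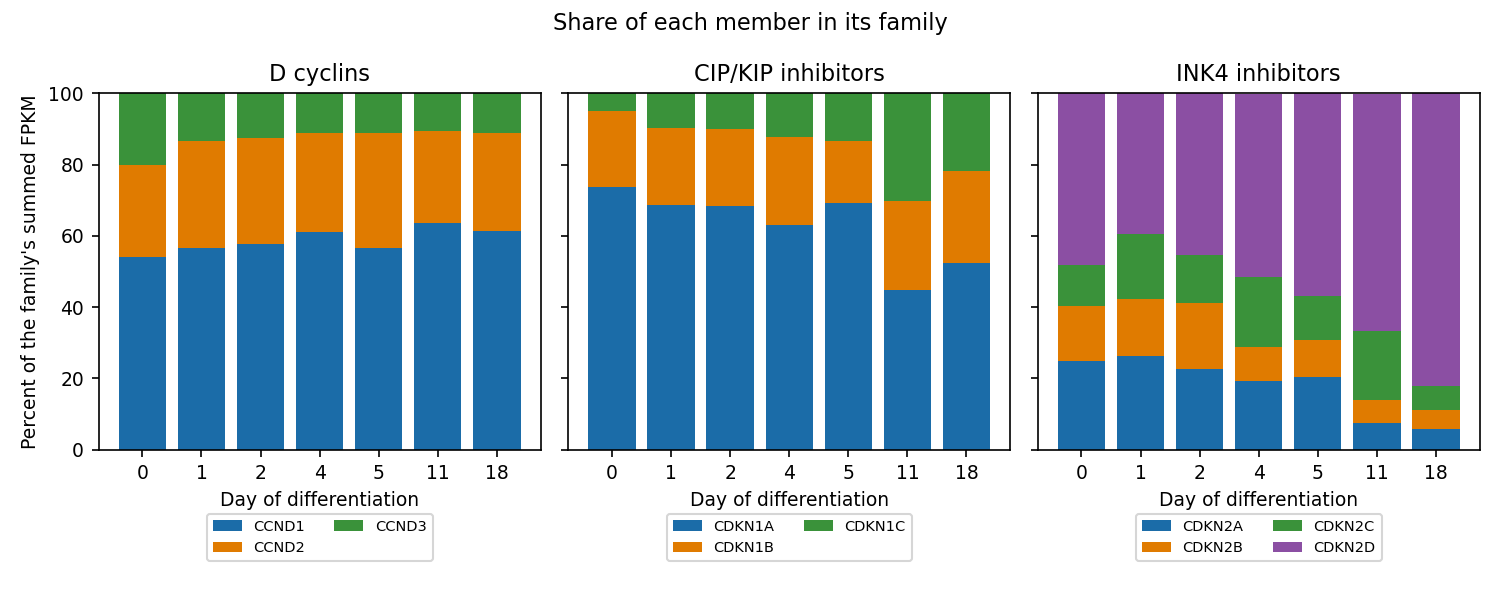
Stacked bars give each member's percent of its family's summed FPKM on each day, from the authors' pooled values. CCND3 narrows from 20.2 to 13.3% between days 0 and 1, CDKN1C widens to 30.2% at day 11, and CDKN2D widens from 48.2 to 82.2%.

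Ordered by level at day 0, the members ran CDKN1A, CCND1, CCND2, CDKN1B, CCND3, CDKN1C, CDKN2D, CDKN2A, CDKN2B and CDKN2C. At day 18 the order was CDKN1A, CCND1, CDKN1B, CDKN1C, CDKN2D, CCND2, CCND3, CDKN2C, CDKN2A and CDKN2B. CCND2 and CCND3 had passed below CDKN1C and CDKN2D. Without values of single cultures it cannot be said which neighbours in these orders differ beyond their spread. The ratio of the CIP/KIP sum to the D cyclin sum was 1.16 (day 0), 2.67 (day 5, its peak) and 2.24 (day 18), and that of the INK4 sum 0.0934 (day 0) and 0.388 (day 18).

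At most 2 of 10 members were past 2-fold in any step between adjacent days, too few to set the members apart from all coding records. From day 0 to day 1, 1 member was past 2-fold (CDKN1C), against 6.69% of coding records. No member was past 2-fold between days 1 and 2, 2 and 4, or 4 and 5, where 0.280, 0.780 and 0.305% of coding records were. Between days 5 and 11 there were 2 (CDKN1A lower, CDKN2C higher), against 6.04%, and the last step had 1 (CDKN2C, lower), against 4.56%. CDKN2D, at 1.54 over the whole course, was past 2-fold in none of the 6 steps.

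**Figure D4:**
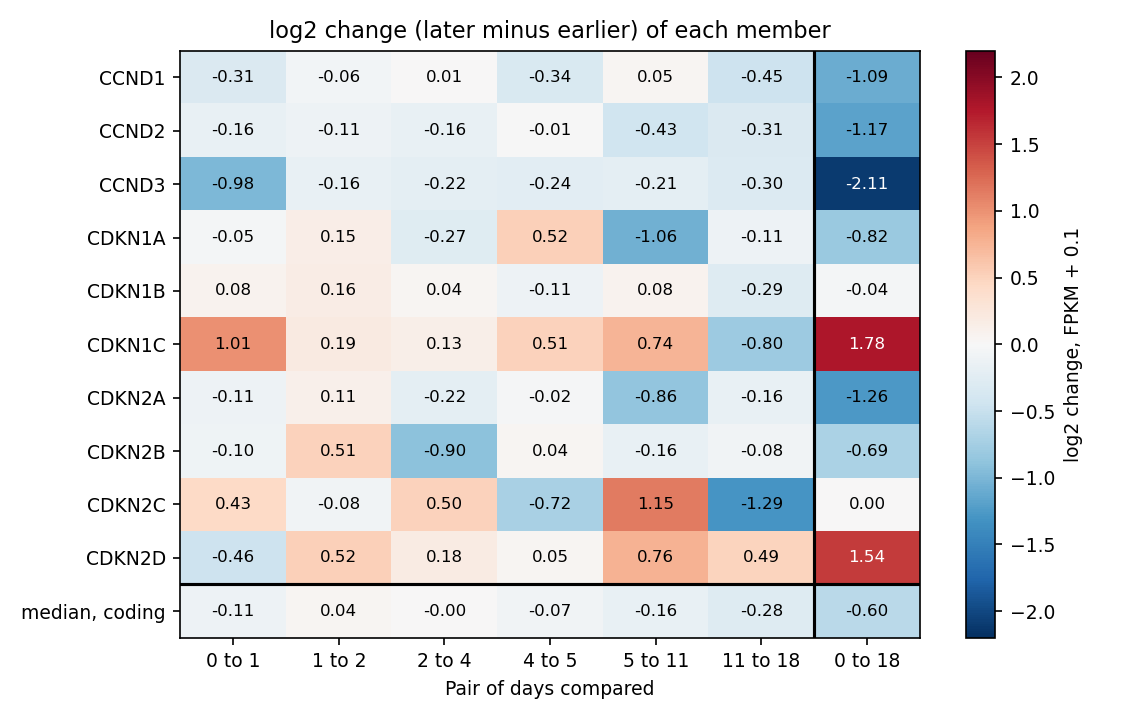
Each cell gives a member's change in log2(FPKM + 0.1), later day minus earlier day, for the 6 steps and, right of the black line, for day 18 against day 0, with red for higher and blue for lower. The bottom row gives the median of the 11793 coding records, which is lowest for the last step (-0.28). CCND3 (-0.98) and CDKN1C (1.01) stand out from day 0 to 1, CDKN2C (1.15 and -1.29) in the last 2 steps.

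The cyclin D kinases ended lower as well. CDK4 was at 183, 153, 158, 146, 120, 84.4 and 50.2 FPKM on the 7 days and CDK6 at 50.1, 50.4, 47.7, 49.3, 44.3, 25.2 and 20.9, with whole changes of -1.86 and -1.26. Relative to the coding median CDK4 was still past 2-fold lower (-1.26) and CDK6 was not (-0.66). CDK4 was above each D cyclin at day 0 and at day 18, and CDK6 kept its level until day 5. The next cyclins in the cycle had larger changes. All 4 expressed genes of the list of E and A cyclins and CDK2 were past 2-fold lower, against 29.9% of coding records. Their median was -2.60, or -2.00 after recentring. CCNE1 went from 8.87 to 1.13 FPKM (-2.86), CCNE2 from 13.6 to 2.18 (-2.58), CCNA2 from 55.9 to 9.07 (-2.61) and their kinase CDK2 from 53.6 to 9.33 (-2.51).

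Among the pocket proteins, the substrates of these kinases, RBL1 (p107) was past 2-fold lower at -1.62. RB1 was at 19.4 FPKM at day 0 and 12.8 at day 18 (-0.59, at the coding median), and RBL2 (p130), known from resting cells, was at 8.37 and 8.39 (0.00). Of 10 E2F and DP factors, 8 were past 2-fold lower and none higher, against 29.9 and 7.57% of coding records. Their median was -1.94 beside -0.60 for coding records. After recentring the median was -1.34, and E2F4 (-0.55) and E2F5 (-0.66) came inside 2-fold. E2F7 (-2.82), E2F8 (-2.47) and E2F1 (-2.38), a pair of repressors and an activator induced at S phase entry, were lowest. All 12 markers of S phase and proliferation were past 2-fold lower, against the same 29.9%, with a median of -2.31, or -1.71 after recentring. MKI67 went from 74.2 to 14.2 FPKM, and BIRC5 (-2.88), CCNB1 (-2.83) and MCM3 (-2.70) changed most. The summed level of the 12 markers was 1180 FPKM (day 0), 707 (day 1), 518 (day 5), 537 (day 11) and 240 (day 18). The D cyclins CCND1 (-1.09) and CCND2 (-1.17) thus changed by less than each of these 12 markers, and CCND3 (-2.11) lay within the markers' range.

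Genes that control the members were mixed, and their counts stand against 29.9% of coding records past 2-fold lower and 7.57% higher. Of the 5 genes of the SCF ligase that degrades the CDKN1B protein, 3 were past 2-fold lower: CKS1B (-3.24), the substrate subunit SKP2 from 41.3 to 9.34 FPKM (-2.13), and RBX1 (-1.16), whose record is merged with XPNPEP3. Of the 5 genes of the ligase and kinase that mark D cyclins for degradation, 1 was past 2-fold lower, the scaffold CUL4A (-1.46), while DDB1 was at -0.79 and AMBRA1, the subunit that binds D cyclins, at -0.05. After recentring CKS1B (-2.64) and SKP2 (-1.53) stayed past 2-fold lower, and RBX1 (-0.56) and CUL4A (-0.86) did not. Among transcription factors known to act on members, 5 of 6 expressed were past 2-fold lower, including FOXO1 (-2.66), TCF7L2 (-1.57), MYCN (-1.34) and MYC (-1.26, from 16.0 to 6.61 FPKM), and FOXO3 was at 0.69. After recentring FOXO1 was still past 2-fold lower (-2.06) and FOXO3 was past 2-fold higher (1.29). TCF7L2 (-0.97), MYCN (-0.74), MYC (-0.66) and SP1 (-0.49) were then inside 2-fold. Of 5 expressed Polycomb genes that repress the INK4 locus, 3 were past 2-fold lower, EED (-1.38), EZH2 (-1.28) and SUZ12 (-1.17), while CBX8 was at 0.23 and BMI1, in a record merged with COMMD3, at 0.70. Relative to the coding median the first 3 were inside 2-fold (-0.78, -0.69 and -0.57) and BMI1 was past 2-fold higher (1.30). Over the 9 lists 39 of 52 expressed genes were past 2-fold lower and none higher, and with recentring 27 were lower and 2 higher (FOXO3 and BMI1). The list genes below a mean of 1 FPKM, which these counts leave out, all ended higher. They were CCNA1 (1.86), CBX7 (1.09) and KLF4 (0.58), at 0.213, 0.299 and 0.0693 FPKM at day 0.

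**Figure D5:**
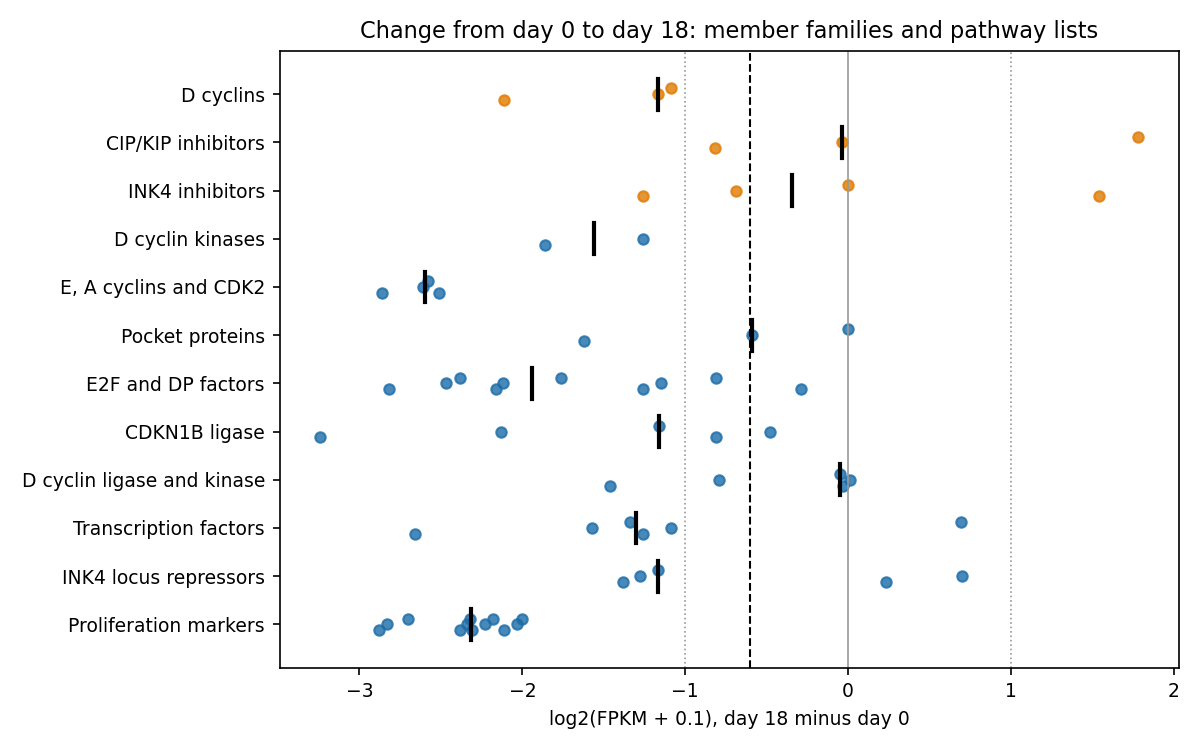
Each point is a gene's change in log2(FPKM + 0.1), day 18 minus day 0, with the 10 members in orange by family and the genes of 9 pathway lists with a mean of at least 1 FPKM in blue. Black bars are list medians, the dashed line is the median of all coding records (-0.60) and dotted lines stand at 2-fold. Points of the E and A cyclin list and of the proliferation markers all lie at or beyond -2.00, left of CCND1 and CCND2, and no blue point lies past 2-fold higher.

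Courses over the 7 days were also compared between members, by Pearson's r of log2(FPKM + 0.1), as a description over 7 pooled values that share the authors' scaling and the drift of the median. Among the D cyclins r was 0.92 for CCND1 with CCND2, 0.92 for CCND1 with CCND3 and 0.89 for CCND2 with CCND3. Such values were common. Of the 5188 coding records compared below, 1918 had r above 0.9 with CCND1, 2352 with CCND2 and 1287 with CCND3. Pairs of members were not compared after recentring. CCND2 and CDKN2A gave 0.96, CCND2 and CDKN2D -0.95, and CCND3 and CDKN1C -0.91. CDKN1C and CDKN2D, the members that ended higher, gave 0.65, with CDKN1C highest at day 11 and CDKN2D at day 18. Each of the 9 members that varied by at least 2-fold was then compared with 5188 single-symbol coding records that did so too, which leaves out CDKN1B. Nearest to CCND1 were ZNF714 (0.998), C1orf216 (0.996) and RAD54L (0.995), nearest to CCND2 were LRIG3, DNMBP and MAPK14 (0.996 each), and nearest to CCND3 were TRAF2, TMEM90B (0.996 each) and PKIG (0.995). CDKN1A was nearest to EPAS1 (0.990), PLD1 (0.976) and POLD4 (0.967), and CDKN1C to ROBO3 (0.996), SLC6A8 (0.993) and ZNF397 (0.986). ROBO3, an axon guidance receptor, went from 5.51 FPKM (day 0) to 71.1 (day 11) and 35.3 (day 18). Among the INK4 genes, CDKN2A was nearest to PDLIM2 (0.998), MSRB3 and FAM84B (0.997 each), and CDKN2B to HES1 (0.977), a Notch effector, FLNC (0.967) and MFSD3 (0.947). CDKN2D was nearest to GRIA4 (0.996), a glutamate receptor subunit, PBX3 (0.990) and ADCY1 (0.987). CDKN2C had few like it, with ACBD7 at 0.926, PAX3 at 0.899 and FZD7 at 0.868, and 1 candidate above 0.9, where CCND2 had 2352.

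Around the members, 37 pairings of a member with a record within 50000 bases were found, 13 of them with lincRNA records, and in 19 the neighbour had a mean of at least 1 FPKM. The single lincRNA among these was linc-CDKN1A, 2283 bases upstream of CDKN1A on the same strand, which was at 3.47, 2.70, 2.54, 2.46, 2.47, 1.57 and 1.24 FPKM (-1.41). It did not share the day 5 peak of CDKN1A. In GENCODE its span overlaps the lncRNA PANDAR on the other strand and the processed pseudogene LAP3P2, so its reads are of uncertain origin. On chromosome 9 a merged record of CDKN2BAS (also called ANRIL) and MTAP spans CDKN2A and CDKN2B without sharing exon bases, and it went from 13.8 to 3.77 FPKM (-1.84).

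Neighbours of the members that ended higher did not share one direction from day 0 to day 18. By CDKN1C, the imprinted PHLDA2 was at 20.5 FPKM at day 0 and 0.436 at day 18 (-5.26). SLC22A18, also by CDKN1C, was higher in between, at 1.28, 3.61, 4.96, 3.65, 4.78, 2.21 and 1.55 FPKM on the 7 days (0.26). By CDKN2D, SLC44A2, a choline transporter-like gene, was at 31.0, 115, 163, 203, 195, 185 and 144 FPKM (2.21), KRI1 at -1.13 and ATG4D at -0.75. The 4 expressed neighbours of CCND3 were at -1.57 (BYSL), -1.44 (TAF8), -1.09 (MED20) and 0.36 (USP49). ORAOV1 by CCND1 was at -0.74, C12orf5 by CCND2 at -1.22, FAF1 by CDKN2C at -0.69, and by CDKN1B GPR19 was at -0.09 and the merged record of APOLD1 and DDX47 at -1.41.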

How the data were processed

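Polyadenylated RNA was sequenced as paired reads. Per the study's methods and the submitters' processing notes, the authors aligned reads to hg19 with TopHat2 and estimated expression with Cuffdiff2, both at default options, over a catalogue of coding genes and lincRNAs. Program versions and the strand setting are not given in the sources used here. The FPKM values deposited by the authors hold 1 value per record and day over all cultures of that day, and 0 columns hold single samples. The deposited table of exons gave coordinates and symbols. Its columns of the authors' comparisons of adjacent days (fold changes, test statistics, p and q values) were not used.

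Days were taken from the sample labels. The record of each member was the coding record with its symbol. The arithmetic of the change was first checked on simulated records moved by known folds without noise, which says nothing of spread or depth. Changes were computed on log2(FPKM + 0.1) with Python 3.11.15, pandas 2.3.3 and numpy 2.4.6, and set against 11793 coding records with a mean of at least 1 FPKM. All 10 members were named, with the defining genes of 9 pathway lists (55 genes) and up to 3 further genes a list with the largest change, the 3 records most like each member, and neighbours with a mean of at least 1 FPKM. CCNA1, KLF4 and CBX7 did not reach that mean. Some further genes are not reported here. Members, lists and alternatives were chosen with earlier results of these data known. Alternatives were other pseudocounts, recentring, scaling to the same sum, another fold minimum, no filter on low values, day 11 for day 18, and other likeness measures.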

Additional observations from a re-analysis of the deposited data

How the results depend on the processing

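No paired analysis was possible because the files hold 1 pooled value per day, and for the same reason no culture could be left out. No member past 2-fold from day 0 to day 18 changed sign under any alternative run. Recentred on the coding median, the changes were -0.49 (CCND1), -0.57 (CCND2), -1.52 (CCND3), -0.22 (CDKN1A), 0.56 (CDKN1B), 2.37 (CDKN1C), -0.66 (CDKN2A), -0.09 (CDKN2B), 0.60 (CDKN2C) and 2.14 (CDKN2D). With each day scaled to the same sum of FPKM they were, in the same order, -0.37, -0.45, -1.40, -0.10, 0.68, 2.49, -0.58, -0.01, 0.68 and 2.26. CDKN1B, at -0.04 as deposited, and CDKN2C thus lay above 0 under both scalings. Under either, 3 members in place of 6 were past 2-fold over the course (CCND3, CDKN1C, CDKN2D), and 4 in place of 2 were higher. At day 11 in place of day 18, CDKN1C was at 2.57 and CDKN2C at 1.29.

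Counts of members past 2-fold in a single step moved as well. With a pseudocount of 1 they were 0 (day 0 to 1), 1 (day 5 to 11) and 0 (day 11 to 18). Recentred or scaled, 1 member was past 2-fold from day 5 to 11, and scaled, 0 from day 11 to 18. At a fold minimum of 1.5 the counts were 2 from day 0 to 1, 1 from day 2 to 4 and 1 from day 4 to 5. The shares of coding records past that fold in these steps were 22.5, 4.27 and 3.04%. From day 5 to 11 the count was 5, against 15.9% of coding records, and from day 11 to 18 it was 2, against 17.3%. Over the whole course 8 members were past 1.5-fold, against 62.7% of coding records. Pathway genes past 2-fold lower were 26 in place of 39 with each day scaled to the same sum, and genes past 2-fold higher were 2 under either scaling. Of the 27 genes named for a like course, 15 were kept after recentring and 12 by Spearman's rho. A pseudocount of 0.01 left each value within 1.5 times. Each member had 1 coding record, so summing all records of a symbol could change no value and tests nothing.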
